A study of Equus asinus with 3 samples.

Results

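SPATA (spermatogenesis associated) and TEX (testis expressed) are naming roots given to genes because their transcripts were first noted in testis, and they do not mark families of related proteins. All features whose name is SPATA or TEX followed by a digit were taken, with 1 TEX gene left out, which gave 60 genes of 34267 features over 3 single-cell libraries of donkey (Equus asinus). The choice used names alone and no measured value. Of the 60 genes, 57 were listed in all 3 files. TEX13A, TEX19 and TEX44 were not listed for the corpus of the epididymis and were taken as 0 there.

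In the testis, spermatogonia divide and enter meiosis as spermatocytes, which then yield round spermatids that elongate into sperm. Round spermatids begin to form the acrosome and the axoneme of the tail. During elongation the connecting piece that joins head and tail and the mitochondrial sheath are built, and histones are replaced with transition proteins and protamines. Sperm then pass through the caput (head) and the corpus (body) of the epididymis, whose epithelium secretes the fluid in which they mature. Several SPATA and TEX proteins act in meiosis or in building the sperm, while others work in many kinds of cell.

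The libraries were 1 of testis, labelled germ cells, 1 of epididymis caput and 1 of epididymis corpus, both labelled somatic cells. The tissues came from 3 sexually mature males, while the sources used here do not say which animals each library holds, nor their breed or exact age. No treatment, genotype or cell sort is described. With 1 library per tissue there is no replicate and no test: every interval below is a 95% interval that covers counting error only.

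After filtering, 8528 testis cells gave 47016512 unique molecular identifiers (UMIs, each marking 1 captured transcript), 9478 caput cells gave 13203203 and 9609 corpus cells gave 4141900. The median cell had 4697.5 UMIs in testis, 1145 in caput and 371 in corpus. Levels are given as CPM, the UMIs of a gene scaled to 1e+06 UMIs of the library or group of cells, and are not divided by gene length, so they are compared between cells and not between genes. A single UMI was worth 0.0213 CPM in testis, 0.0757 in the caput and 0.241 in the corpus. Doublets could be called in testis alone, so some remain in both epididymal libraries. A fixed list of germ cell markers named part of the testis clusters as germ cells, as labelled. In caput, 249 cells also fell in germ-like clusters although that library is labelled somatic.

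Testis germ clusters, built with the 60 genes left out, were ordered by markers of spermatocytes and spermatids and gathered into 5 steps. The first step, late spermatocyte-like, held 1919 cells, and the second, an unnamed intermediate step, 2902. No germ cell list passed the naming rule in the clusters of the intermediate step (1, 3 and 4), which were placed by marker levels alone. The third step, round spermatid-like, held 1936 cells, and the next, an unnamed late step, 357. Markers of both round and elongating spermatids passed the naming rule in the unnamed late step (11 of 13 and 9 of 13) and in both round spermatid-like clusters (11 of 13 with 8 of 13, and 11 of 13 with 6 of 13). Their mean log2 levels lay closer together in the unnamed late step (1.89 and 1.71) than in the round spermatid-like clusters (1.69 and 1.18, and 1.297 and 0.627). The fifth, elongating spermatid-like, held 180 cells and 820164 UMIs, so that 1 UMI there was worth 1.22 CPM. Both lists passed the rule there too, with 6 of 13 round (mean log2 1.02) and 11 of 13 elongating spermatid markers (3.45). The early spermatocyte and spermatogonial lists marked no testis cluster.

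Along these steps the SPATA and TEX genes together took a growing share of the UMIs. They held 0.543% of UMIs (0.539 to 0.548%) in late spermatocyte-like cells, 0.730% in the intermediate step, 1.08% in round spermatid-like cells, 1.40% in the unnamed late step and 1.83% (1.80 to 1.85%) in elongating spermatid-like cells. A gene was given a peak step when it had at least 50 UMIs over the 5 steps and the whole interval of its highest step over the next lay above 1. Of 54 genes with enough UMIs, 38 had a peak step (70.4%), against 43.8% of the 17643 features with enough UMIs. More UMIs let smaller differences pass this rule, and these shares were not matched for UMIs. Late spermatocyte-like cells were the peak of 7 genes (12.96%), below the 19.3% of all features, and the intermediate step was the peak of 3 (5.56%, against 4.34%). Round spermatid-like cells were the peak of 4 genes (7.41%, against 3.55%), the unnamed late step of 7 (12.96%, against 6.8%) and elongating spermatid-like cells of 17 (31.5%, against 9.82%).

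**Figure D1:**
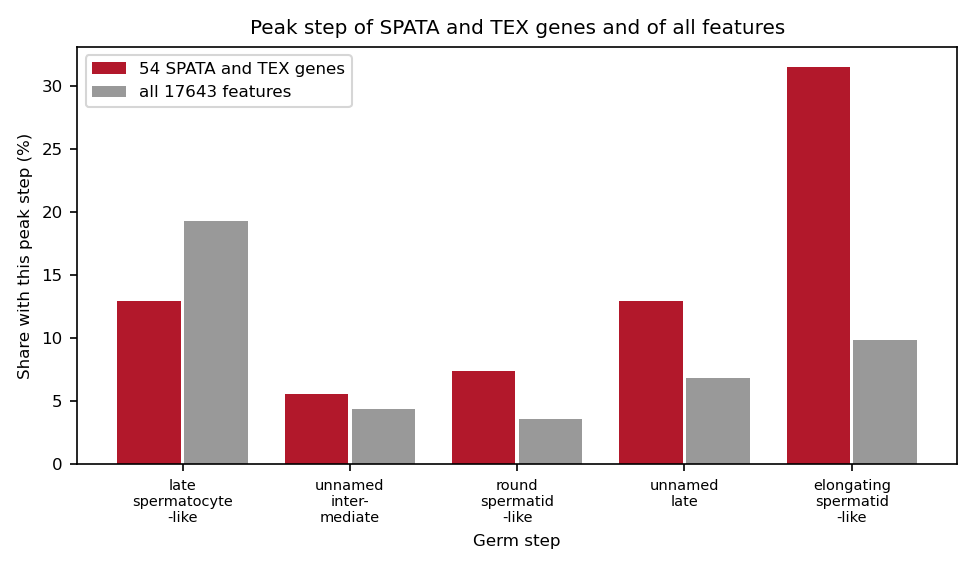
Share of 54 SPATA and TEX genes (red) and of all 17643 features with at least 50 UMIs (grey) given each of 5 germ steps of testis as peak step by the interval rule, in percent, on an axis from 0. The red bar is the lower one in late spermatocyte-like cells (12.96% against 19.3%) and the higher one in elongating spermatid-like cells (31.5% against 9.82%).

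The elongating count depends on how steps are drawn. It was 10 when the whole interval had to lie above 2-fold, 30 when clusters were built from 4000 variable genes, a setting that left the unnamed late step without cells, and 15 when a further 75-cell cluster was added to the elongating cells. The matching shares over all features were 4.30%, 14.7% and 7.60%. That cluster met the naming rule for elongating spermatids (9 of 13 markers) but was kept out of the steps, a choice made after seeing the clusters. Its summed level of late spermatocyte markers was 7171 CPM, against 2208 CPM in the elongating spermatid-like step, and of elongating markers 16272 CPM, against 53181 CPM. The unnamed late count was 14 with that cluster added (9.10% of all features) and 12 with the 60 genes kept in the clustering (8.88%).

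**Figure D2:**
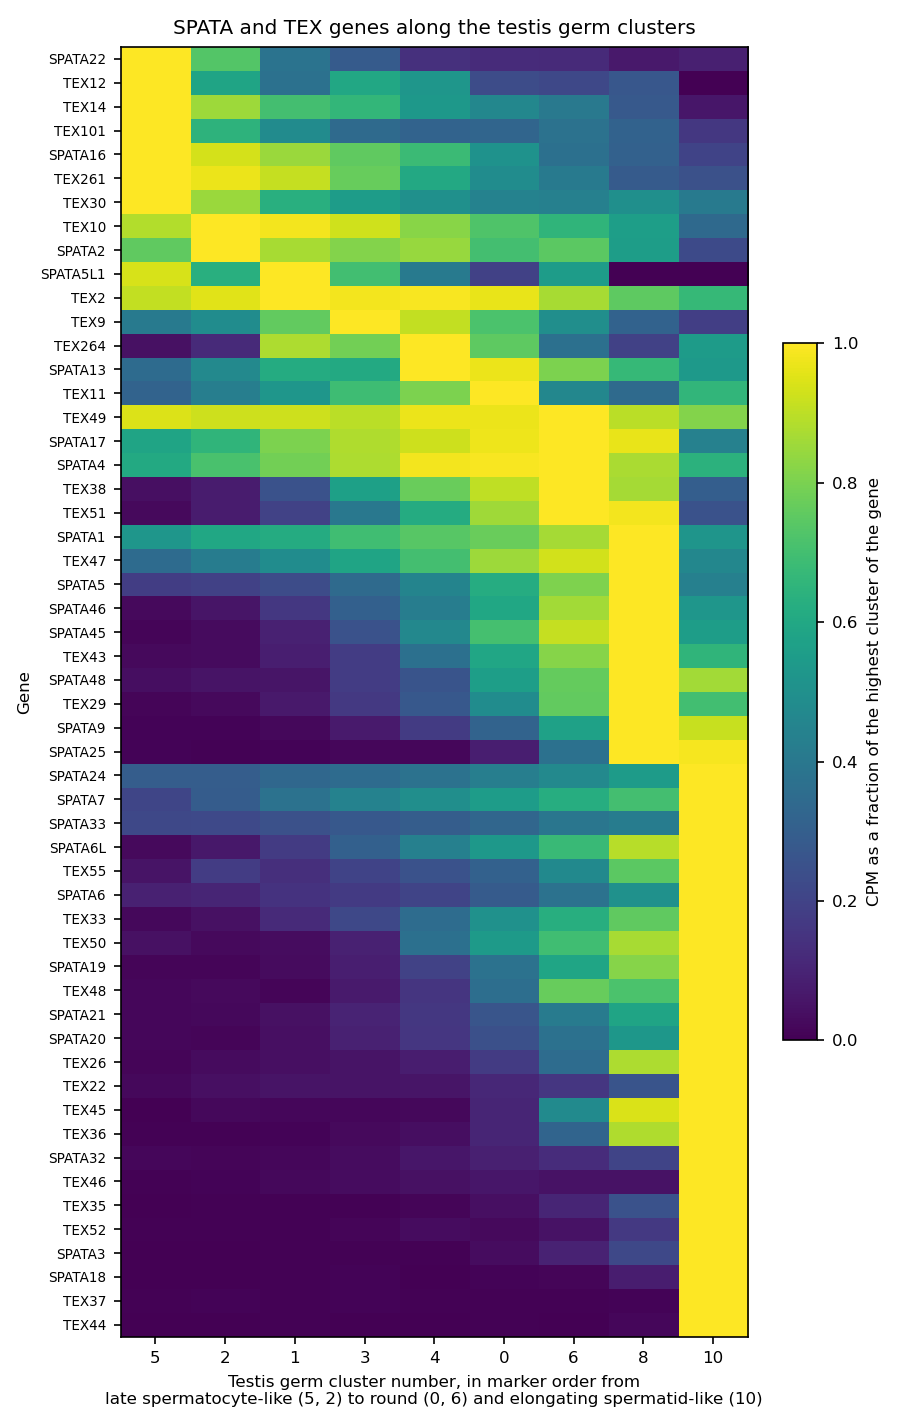
Level of the 54 SPATA and TEX genes with at least 50 UMIs in 9 testis germ clusters ordered by markers, each gene scaled to its highest cluster (1, yellow) with 0 in dark blue. The highest cluster was cluster 5 (late spermatocyte-like) for 7 genes (19.7% of all features), cluster 8 (unnamed late) for 10 (15.6%) and cluster 10 (elongating spermatid-like) for 24 (20.6%).

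Genes with their peak in late spermatocyte-like cells included those with known parts in meiosis and in germ cell bridges. SPATA22, which in mouse acts with MEIOB in the repair of meiotic DNA breaks, had 73.5, 22.8, 10.1, 5.58 and 7.32 CPM along the 5 steps. Its level in late spermatocyte-like cells was 3.22-fold (95% interval 2.84 to 3.66) that of the next step, the steepest early peak of the 7. TEX12, a part of the central element of the synaptonemal complex that holds paired chromosomes together, had 3.88, 2.33, 1.07, 1.29 and 0 CPM, from 104 UMIs in the library, with 0 UMIs in the fifth step. TEX14, needed in mouse for the stable bridges that join dividing germ cells, had 319.6, 217, 149, 95.7 and 20.7 CPM. The late spermatocyte-like level of TEX14 was 1.47-fold (1.403 to 1.54) the next one, and its level was lower at every step that followed.

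SPATA16, a Golgi protein of the forming acrosome whose loss in men gives round-headed sperm, had 349.5, 276, 161, 112 and 71.9 CPM along the steps, 1.27-fold (1.21 to 1.32) higher in the first than in the second. TEX101, a germ cell surface protein that mouse sperm need to enter the oviduct, had 38.1, 17.5, 15.7, 14.2 and 7.32 CPM, with a first step 2.18-fold (1.87 to 2.55) above the next. TEX30 had 224, 136, 106, 119.7 and 97.5 CPM, with its highest value 1.65-fold (1.56 to 1.75) above the second step. TEX261 had 122, 94.8, 55.8, 35.2 and 30.5 CPM, a gradual decline. Elongating spermatid-like cells were beyond 4-fold lower than late spermatocyte-like cells for 2 of 43 genes with enough UMIs, SPATA22 and TEX14 (4.65%, against 8.74% of 8829 features).

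Of the 3 genes with a peak in the intermediate step, TEX2, a lipid-binding protein of endoplasmic reticulum contact sites, had 461, 492, 459, 372 and 332 CPM, so its highest step was 1.07-fold (1.03 to 1.11) the next. TEX9 had 52.4, 104, 73.5, 37.3 and 21.9 CPM, with a clearer maximum of 1.42-fold (1.302 to 1.54). TEX264, a receptor for the autophagy of endoplasmic reticulum, had 0.518, 5.92, 3.91, 1.29 and 3.66 CPM from 179 UMIs in all.

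Among the 4 genes with a peak in round spermatid-like cells, TEX38 had 21.5, 199, 367, 336 and 116 CPM, with its highest step 1.09-fold (1.01 to 1.18) the next. It was low in late spermatocyte-like cells, high in the round spermatid-like and unnamed late steps and lower again at the end. SPATA4 had 383, 516, 584, 512 and 378 CPM, with all 5 steps within 1.55-fold. SPATA13, a guanine nucleotide exchange factor for small GTPases that also acts outside the germ line, had 21.8, 40.04, 48.9, 36.5 and 29.3 CPM. TEX49, a protein of the microtubules of the sperm axoneme, had 779, 774, 817, 744 and 677 CPM. With 36252 UMIs its peak passed the rule at 1.05-fold (1.02 to 1.08), and the highest and lowest steps differed by 1.21-fold.

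The 7 genes with their peak in the unnamed late step were already well above their spermatocyte level in round spermatid-like cells, apart from SPATA1. TEX29 had 13.9, 124, 453, 751 and 524 CPM, TEX43, another protein of the sperm axoneme microtubules, had 15.1, 116, 395, 572 and 374 CPM, and SPATA45 had 8.89, 109, 335, 421 and 234 CPM. Each of these 3 was low in late spermatocyte-like cells and had its highest value 1 step before the elongating cells. SPATA46, which in mouse sits at the nuclear envelope and shapes the sperm head, had 8.02, 59.6, 146, 206 and 109 CPM. SPATA5, an ATPase of ribosome assembly present in many cell types, had 92.5, 168, 349.9, 499.5 and 218 CPM. TEX47 had 279.6, 432, 655, 739 and 343 CPM, and SPATA1 had 71.2, 87.3, 104, 128 and 67.1 CPM, the flattest of the 7.

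**Figure D3:**
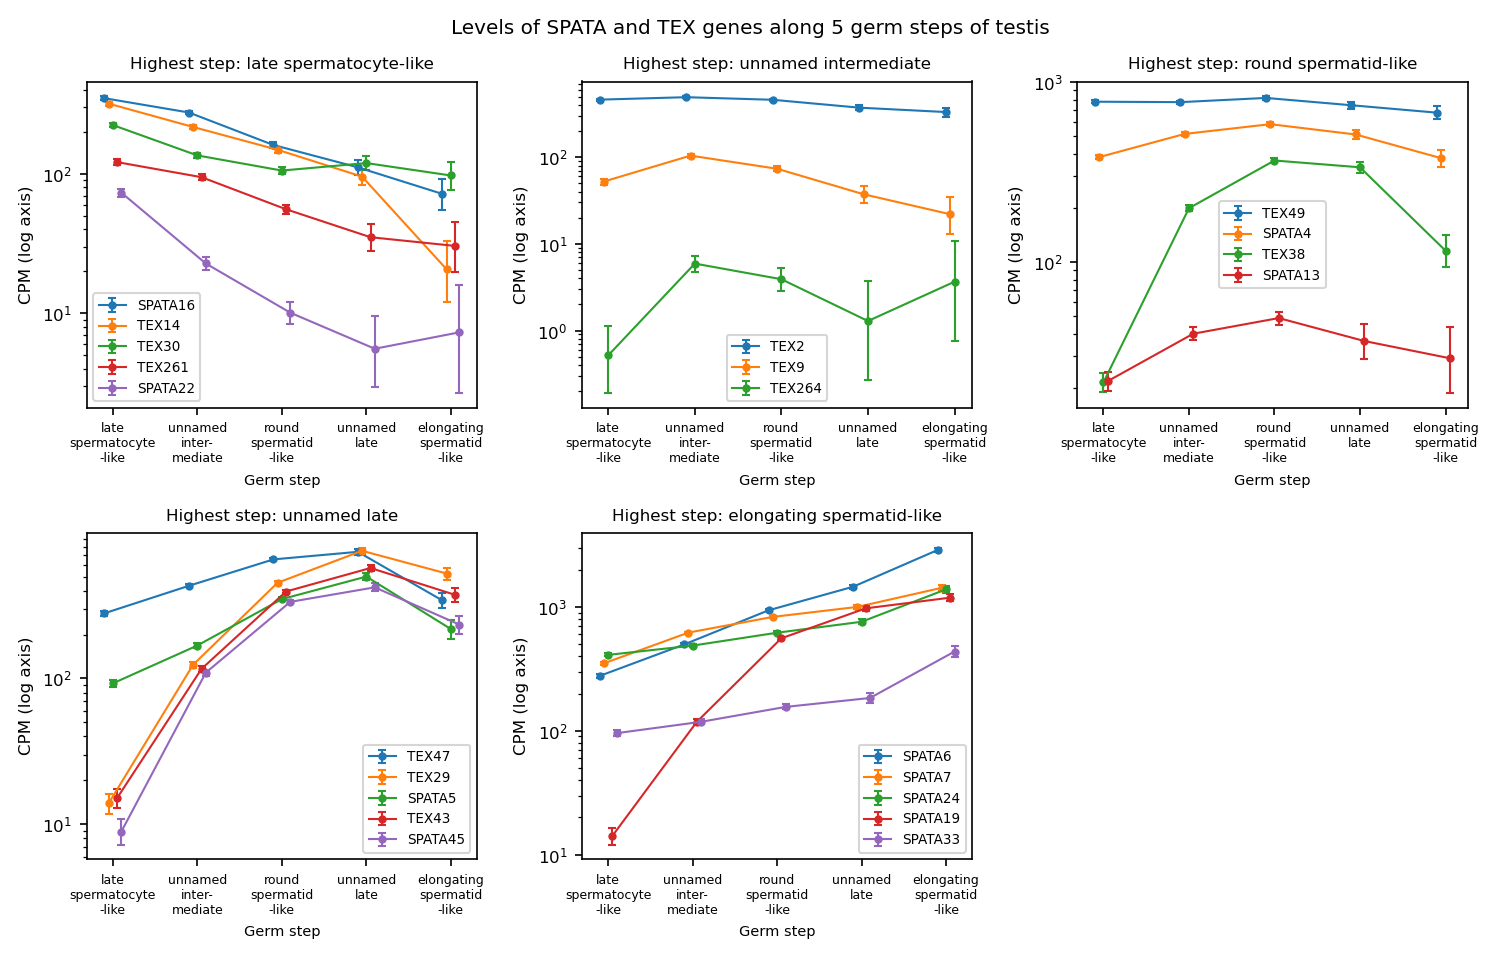
CPM (log axis) along 5 germ steps of testis for up to 5 SPATA or TEX genes with the most UMIs in each peak step, with 95% Poisson intervals as bars. SPATA22 is highest in late spermatocyte-like cells (73.5 CPM) and SPATA6 in elongating spermatid-like cells (2882 CPM), while TEX49 stays between 677 and 817 CPM.

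The 17 genes with their peak in elongating spermatid-like cells ranged from genes abundant in every step to genes near 0 until the last. SPATA6, which in mouse builds the connecting piece between sperm head and tail, had 277, 498, 940.0, 1456 and 2882 CPM along the steps. SPATA7, known in man and mouse for its part at the connecting cilium of photoreceptors, had 350.3, 620.5, 831, 1001 and 1428 CPM. SPATA24 had 410.2, 487, 619, 759 and 1388 CPM. All 3 were thus abundant in every step and highest in the last, by 1.98-fold (1.88 to 2.09) over the unnamed late step for SPATA6, 1.43-fold (1.33 to 1.53) for SPATA7 and 1.83-fold (1.695 to 1.97) for SPATA24. SPATA33, which in mouse holds calcineurin at the sperm mitochondria, had 95.7, 118, 156, 184 and 436 CPM, with a last step 2.37-fold (2.05 to 2.73) above the one before.

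SPATA19, a protein of the mitochondrial sheath in mouse sperm, had 14.2, 118, 558, 975 and 1189 CPM, an 84.01-fold (71.1 to 99.7) difference between the last step and the first. Its peak moved to the unnamed late step when the 75-cell cluster was added to the elongating cells, as did that of TEX33, at 9.23, 64.6, 160.4, 217 and 288 CPM. SPATA20 had 6.903, 41.2, 132, 232 and 439 CPM and SPATA21 3.45, 17.4, 58.2, 103 and 177 CPM, so both climbed at each step.

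Among the 5 steps, a set of 4 genes was concentrated in the 180 elongating cells, and these were picked out after their values were seen. TEX37, a further axonemal microtubule protein of sperm, had 1.55, 1.93, 1.69, 2.15 and 261 CPM, and its last step was 122-fold (95% interval 51.3 to 378) above the next. TEX44 had 0.345, 0.599, 0.799, 3.43 and 179 CPM, with a last step 52.2-fold (25.8 to 123) above the next. TEX46 had 1.98, 8.85, 15.5, 13.3 and 279 CPM, 17.97-fold (14.7 to 22.01) above the next. SPATA18, also named MIEAP and known for the clearance of damaged mitochondria, had 2.76, 4.52, 8.43, 66.1 and 817 CPM, 12.4-fold (10.4 to 14.8) above the next. For TEX37 the first 4 steps did not differ beyond their intervals, so its level stood apart in the last step alone.

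SPATA3 had 4.31, 7.65, 77.8, 279 and 1297 CPM and TEX35 4.06, 7.72, 62.8, 227 and 908 CPM, both with sizeable levels already in round spermatid-like cells. Lower levels with the same order were seen for SPATA32 (2.76, 6.45, 18.5, 36.5 and 177 CPM), TEX52 (0.604, 1.796, 3.64, 17.2 and 102 CPM) and TEX22 (1.12, 1.995, 4.97, 9.87 and 37.8 CPM). The last step stood 4.65-fold (4.21 to 5.14) above the unnamed late step for SPATA3, 3.99-fold (3.57 to 4.47) for TEX35, 4.85-fold (3.68 to 6.41) for SPATA32, 5.97-fold (4.05 to 8.93) for TEX52 and 3.83-fold (2.16 to 6.88) for TEX22.

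Set against late spermatocyte-like cells, elongating spermatid-like cells were beyond 4-fold higher for 25 of 43 genes (58.1%, against 13.9% of features). The median log2 ratio was 3.76 over the 43 genes and -1.19 over all 8829 features. Round spermatid-like cells were beyond 4-fold higher than late spermatocyte-like cells for 23 of 48 genes (47.9%, against 24.3%) and lower for SPATA22 alone (3.86% of features), with a median log2 ratio of 2.01 against 0.17. Between elongating and round spermatid-like cells the differences were fewer: 9 of 46 genes were beyond 4-fold higher in elongating cells (19.6%, against 5.09%), and TEX14 was lower (1.21% of features). Those 9 were SPATA18, SPATA3, SPATA32, TEX35, TEX36, TEX37, TEX44, TEX46 and TEX52. From the first to the eighth of the 9 ordered clusters, 19 of 54 genes were higher at each of 7 moves (35.2%, against 5.47% of features), while SPATA16, SPATA22, TEX14 and TEX261 were lower at each (7.41%, against 5.36%).

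For 16 genes with enough UMIs the highest step could not be told from the next. Of these, SPATA2, which links the deubiquitinase CYLD to its targets, TEX10, a ribosome assembly factor, and SPATA5L1, an ATPase related to SPATA5, were highest in the first steps, for example 368, 359.6, 273, 221 and 134 CPM for TEX10. SPATA17 (432, 607, 691, 678 and 307 CPM) and TEX11, a meiotic gene in man and mouse (4.06, 7.38, 8.52, 3.86 and 7.32 CPM), were highest in the third. SPATA9, SPATA25, SPATA48 and TEX51 were highest in the unnamed late step, and SPATA6L, TEX26, TEX36, TEX45, TEX48, TEX50 and TEX55 in the last. SPATA9 had 4.92, 38.2, 192, 449.7 and 412 CPM, and TEX36 had 1.898, 7.78, 65.8, 292 and 332 CPM: both had far higher values in the last 2 steps, which did not differ beyond their intervals, than in the first. The 6 genes under the minimum were SPATA12 and TEX19 with 3 UMIs each in testis, TEX13A with 25, SPATA2L with 31, TEX28 with 55 and TEX13D with 59, the last 2 having fewer than 50 in the 5 steps.

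Known partners of these genes, from a list of 38, were read by the same rule. Of 27 with at least 50 UMIs, 22 had a peak step (81.5%, against 43.8% of all features, again not matched for UMIs), while BRME1 and MARK4 had too few UMIs. Of 9 synaptonemal complex and recombination genes with enough UMIs, 5 peaked in late spermatocyte-like cells, the peak of 19.3% of all features, among them SYCP1 (439.7, 399, 293, 156 and 63.4 CPM) and RPA2 (3684, 2076, 802, 418 and 272 CPM). SYCP3 had its highest value in round spermatid-like cells (9.06, 51.7, 135, 101 and 23.2 CPM), and MEIOB, the partner of SPATA22, had no peak step (7.94, 10.2, 10.3, 7.72 and 3.66 CPM). All 4 genes with enough UMIs for the germ cell bridges of TEX14 peaked in the first step: CEP55, KIF23, RACGAP1 and ANLN.

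Acrosome genes were spread over the steps. Of 5 measured, GOPC peaked in late spermatocyte-like cells, DPY19L2 in the intermediate step and SPACA1 in the unnamed late step (110.4, 575, 1124, 1478 and 812 CPM), and PICK1 and ZPBP2 had no peak step. Of 9 genes of the connecting piece and mitochondrial sheath, 3 peaked in elongating spermatid-like cells, the peak of 9.82% of all features. These were ODF1 (25.6, 167, 559, 1002 and 2846 CPM), SPATC1 and GPX4. ODF1 is itself an elongating spermatid marker used to name and order the steps, and SPACA1, DPY19L2 and ZPBP2 are round spermatid markers. The levels of these marker genes along the steps are thus not independent of how the steps were drawn. ARMC12 and SPATC1L peaked in the unnamed late step, CNTLN, VDAC3 and CUL3 in the intermediate step and MYL6 in the first. None of the 6 sperm surface genes of the list was among the features under that name.

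In whole libraries the SPATA and TEX genes held 0.813% of UMIs in testis (0.810 to 0.815%), 0.186% in caput (0.184 to 0.189%) and 0.159% in corpus (0.155 to 0.163%). At least 1 UMI was found for 60 genes in testis, 60 in the caput and 57 in the corpus. At least 50 UMIs were found for 56 genes in testis, 50 in the caput and 25 in the corpus. In such sums fewer cells of a type and less RNA per cell cannot be told apart. A gene was counted as beyond 4-fold when its whole interval lay there and the higher group had 50 UMIs or more. Testis was beyond 4-fold higher than caput for 26 of 55 genes (47.3%, against 9.82% of features), and the median log2 ratio was 1.97 against -1.69 over 23387 features. Testis was beyond 4-fold higher than corpus for 30 of 54 (55.6%, against 14.1%), with a median log2 ratio of 2.61 against -0.93. The 2 comparisons share the testis library.

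**Figure D4:**
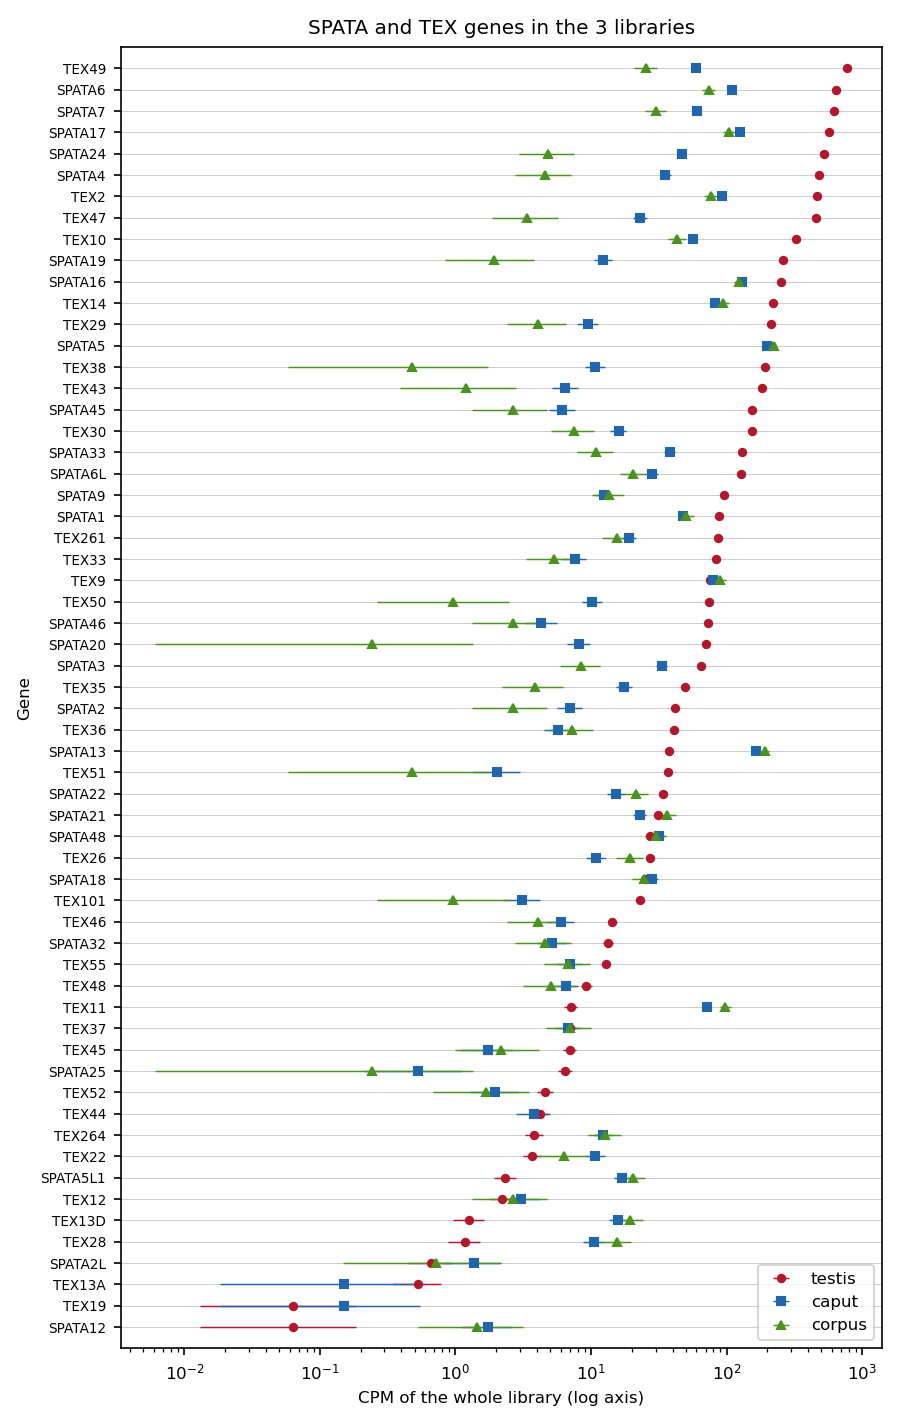
CPM of the 60 SPATA and TEX genes in the whole libraries of testis (red circles), caput (blue squares) and corpus (green triangles), on a log axis with 95% Poisson intervals, ordered by the testis level. Genes with 0 UMIs in a library have no symbol there. TEX43 had 183 CPM in testis, 6.44 in caput and 1.21 in corpus, while TEX11 had 7.08, 72.3 and 98.3.

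Among the genes with the intervals farthest from 1, TEX43 had 183 CPM in testis, 6.44 in the caput and 1.21 in the corpus, which made testis 28.5-fold (23.00 to 35.7) higher than caput and 152-fold (65.03 to 468) higher than corpus. SPATA45 had 154 CPM in testis, 6.13 in the caput and 2.66 in the corpus, with ratios of 25.2 (20.2 to 31.7) over caput and 58.1 (32.5 to 117) over corpus. TEX29 had 214 CPM in testis, 9.47 in the caput and 4.104 in the corpus, and its testis level was 22.6-fold (18.9 to 27.2) that of caput. SPATA19, of the mitochondrial sheath, had 262 CPM in testis, 12.3 in the caput and 1.93 in the corpus, and its testis level was 136-fold (68.8 to 314) that of corpus. These 4 genes, all low in late spermatocyte-like cells and high in spermatids, were thus low in both duct libraries.

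TEX47 had 453 CPM in testis, 23.02 in the caput and 3.38 in the corpus. SPATA4 had 483 CPM in testis, 35.4 in the caput and 4.59 in the corpus, and SPATA24 had 523 CPM in testis, 46.7 in the caput and 4.83 in the corpus. For these 3, and for the genes that follow, the level stood in the order testis, caput, corpus, with no overlap between the intervals of any 2 libraries except caput and corpus for SPATA46 and TEX51. TEX38 had 193 CPM in testis, 10.8 in the caput and 0.483 in the corpus, the corpus value being 2 UMIs, so that testis was 399.7-fold (111 to 3301) higher. SPATA46 had 73.3 CPM in testis, 4.32 in the caput and 2.66 in the corpus, and TEX51 had 36.7 CPM in testis, 2.04 in the caput and 0.483 in the corpus. TEX49 had 771 CPM in testis, 59.8 in the caput and 25.4 in the corpus, and SPATA7 had 621 CPM in testis, 60.2 in the caput and 30.2 in the corpus. TEX50 had 74.4 CPM in testis, 10.2 in the caput and 0.966 in the corpus. SPATA20 had 71.1 CPM in testis, 8.18 in the caput and 0.241 in the corpus, with 1 UMI in corpus and a ratio of testis to corpus of 294 (52.8 to 11629).

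The remaining genes beyond 4-fold higher in testis than in caput were SPATA17, SPATA2, SPATA25, SPATA6, SPATA6L, SPATA9, TEX10, TEX101, TEX2, TEX30, TEX33 and TEX36. Against corpus the same rule also named SPATA3, SPATA33, TEX261, TEX35 and TEX44 and did not name TEX36. TEX44 had 4.23 CPM in testis, 3.79 in the caput and 0 in the corpus. Its testis level was 5.84-fold that of 3 counts in corpus, and the lower limit of its interval over corpus was 4.71-fold. TEX101 had 22.97 CPM in testis, 3.11 in the caput and 0.966 in the corpus.

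A group of 5 genes was beyond 4-fold lower in testis than in either duct library, fewer than features at large (9.09% against 43.9% for caput and 9.26% against 39% for corpus). TEX11 had 7.08 CPM in testis, 72.3 in the caput and 98.3 in the corpus, so testis was 0.0980 (0.0863 to 0.111) times the caput level. SPATA13 had 37.5 CPM in testis, 164 in the caput and 192 in the corpus, and SPATA5L1 had 2.34 CPM in testis, 16.97 in the caput and 20.3 in the corpus. TEX13D had 1.25 CPM in testis, 15.8 in the caput and 19.6 in the corpus, and TEX28 had 1.17 CPM in testis, 10.5 in the caput and 15.5 in the corpus. Without the duct clusters that are poor in ribosomal protein transcripts (4003 cells in caput and 4996 in corpus) 2 of the 5 stayed beyond 4-fold lower against caput, TEX11 and TEX13D, and 1 against corpus, TEX11. The genes beyond 4-fold higher in testis were then 23 against caput and 28 against corpus, compared with 26 and 30 over all cells. They made up 92.0% and 96.6% of calls, compared with 83.9% and 85.7% over all cells. Shares over all features without those clusters are not given here, so whether features at large moved likewise is not shown.

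The 12 SPATA and TEX genes with the highest CPM in caput were SPATA5, SPATA13, SPATA16, SPATA17, SPATA6, TEX2, TEX14, TEX9, TEX11, SPATA7, TEX49 and TEX10. In corpus they were SPATA5, SPATA13, SPATA16, SPATA17, TEX11, TEX14, TEX9, TEX2, SPATA6, SPATA1, TEX10 and SPATA21. Some had close levels in all 3 libraries. SPATA5, the ribosome assembly ATPase, had 209 CPM in testis, 199 in the caput and 223 in the corpus, TEX9 had 75.3 CPM in testis, 79.00 in the caput and 88.8 in the corpus, and SPATA21 had 31.2 CPM in testis, 22.9 in the caput and 36.5 in the corpus. SPATA18, which is not among the 12 of either duct library, had 24.9 CPM in testis, 28.4 in the caput and 24.6 in the corpus, although within testis it was concentrated in elongating cells. Others were higher in testis without passing 4-fold. SPATA16, the acrosome gene, had 254 CPM in testis, 129.5 in the caput and 124 in the corpus, TEX14, the bridge gene, had 219 CPM in testis, 82.7 in the caput and 93.7 in the corpus, and SPATA1 had 87.9 CPM in testis, 47.8 in the caput and 50.5 in the corpus.

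The duct cells held these genes unevenly. In caput, 2 germ-like clusters made up 249 cells (2.63%) and 5.86% of UMIs but 21.7% of the UMIs of SPATA and TEX genes (21.2 to 22.2%). Cluster 9, 141 cells with markers of several germ stages (10 of 14 early and 12 of 14 late spermatocyte, 11 of 13 round and 10 of 13 elongating spermatid markers), gave them 0.612% of its UMIs. Cluster 10, 108 elongating spermatid-like cells with all 13 measured markers of that stage, gave them 0.980% (0.933 to 1.03%). Cluster 10 also carried 5 of 10 fibroblast, 3 of 10 macrophage and 5 of 16 luminal epithelial markers, whose part in its values was not tested. In all other caput clusters the share was 0.155%.

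Germ-like caput cells were beyond 4-fold higher than the other caput cells for 17 of 32 genes with enough UMIs (53.1%, against 6.06% of features) and lower for 0 (0.606% of features). The median log2 ratio was 2.35 against -1.25 over 17501 features. TEX50 had 116 CPM in germ-like cells and 3.62 in other cells, 32.1-fold (22.2 to 47.1) higher. TEX38 had 120.3 and 3.94 CPM, and SPATA4 had 372 and 14.4 CPM, in the same order. TEX35 had 189 CPM in germ-like cells and 6.92 in other cells, and SPATA3 had 340.1 and 14.1. SPATA6, the connecting piece gene, had 604 CPM in germ-like cells and 78.5 in other cells, 7.69-fold (6.87 to 8.596) higher. The others of the 17 were SPATA20, SPATA19, TEX47, SPATA24, TEX30, SPATA7, TEX49, SPATA18, TEX10, SPATA17 and TEX2.

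**Figure D5:**
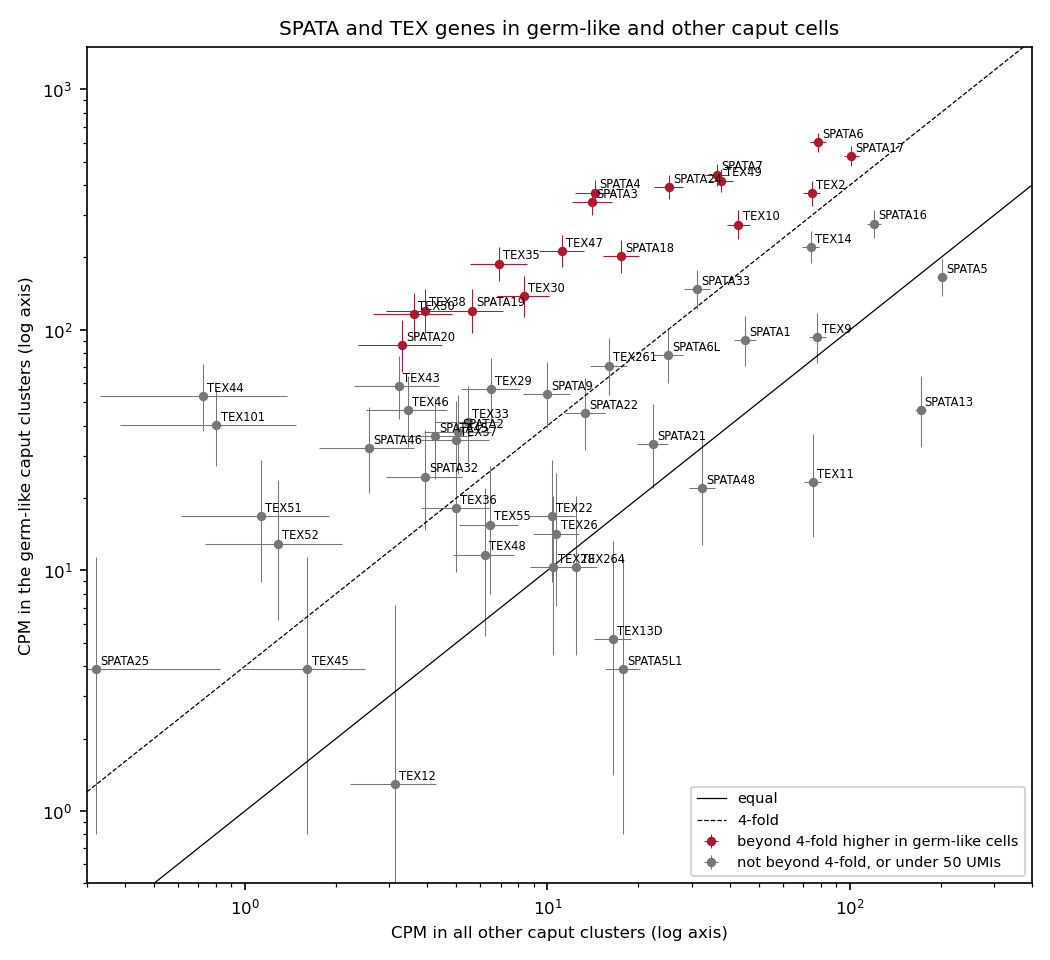
CPM of SPATA and TEX genes in the 249 germ-like caput cells (vertical) and in all other caput clusters (horizontal), both on log axes with 95% Poisson intervals, for genes with at least 1 UMI on both sides. The 17 genes in red lie beyond 4-fold higher in germ-like cells, and SPATA13 (46.5 against 171 CPM) and TEX11 (23.3 against 75.3 CPM) lie below the line of equal levels.

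Genes with fewer UMIs pointed the same way without reaching the minimum. TEX44 had 41 UMIs in germ-like cells and 9 in all others, a ratio of 73.2 (35.1 to 171). TEX101 had 31 and 10 UMIs, a ratio of 49.8 (23.8 to 114). The opposite order was seen for SPATA13 with 46.5 CPM in germ-like cells and 171 in other cells, TEX11 with 23.3 and 75.3, and SPATA5L1 with 3.88 and 17.8. SPATA5 had 166 CPM in germ-like cells and 201 in other cells, close to level.

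The 2 germ-like caput clusters also differed from each other. SPATA18 had 898 CPM in the elongating cluster and 14.8 in the several-stage cluster, SPATA3 had 1518 and 21.4, and TEX35 had 849.8 and 9.86. These were the 3 of 21 genes beyond 4-fold higher in the elongating cluster (14.3%, against 6.02% of 2527 features). SPATA17 was the 1 gene beyond 4-fold lower, at 91.1 against 647 CPM (4.76%, against 13.7%). TEX37 had 27 UMIs in the elongating cluster and 0 in the other. Over the 54 genes, levels in the several-stage cluster ranked most like testis cluster 1, of the intermediate step (Spearman's rho 0.960), and least like the elongating testis cluster (0.362). Values were close for clusters 3 (0.954) and 4 (0.929) of that step and for late spermatocyte-like clusters 2 (0.951) and 5 (0.937). The ranking thus did not single out a step. The elongating caput cluster ranked most like the elongating testis cluster (0.790). These correlations describe levels across genes, which are not independent replicates.

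Caput was beyond 4-fold higher than corpus for 6 of 48 genes (12.5%, against 2.27% of features) and lower for 0 (0.276% of features), with a median log2 ratio of 0.42 against -0.08 over 17761 features. SPATA20 had 8.18 CPM in caput and 0.241 in corpus, and SPATA24 had 46.7 and 4.83 CPM, 9.68-fold (6.21 to 15.96) higher. SPATA4 had 35.4 CPM in caput and 4.59 in corpus, TEX38 had 10.8 and 0.483, and TEX50 had 10.2 and 0.966. TEX44 had 3.79 CPM in caput and 0 UMIs in corpus. Its caput level was 5.23-fold that of 3 counts in corpus, and the lower limit of its interval was 4.10-fold. All 6 were also higher in germ-like than in other caput cells, and without the 2 germ-like clusters 0 of 39 genes were beyond 4-fold higher in caput. The count was also 0 in cells with at least 500 genes, which kept 10.5% of corpus cells, and 2 when caput was thinned to the UMIs of corpus. Shares over all features under these settings are not given here, so whether features at large changed likewise is not shown.

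No corpus cluster met the germ-like rule, at this depth or under any clustering tried. In both duct libraries most of the SPATA and TEX UMIs outside germ-like cells lay in unnamed clusters poor in ribosomal protein transcripts. In caput these were 4003 cells with 2.09% of UMIs from ribosomal protein genes, against 9.78% in the named somatic clusters. They held 44.4% of the SPATA and TEX UMIs and 38.6% of all UMIs of caput. In corpus they were 4996 cells with 0.528%, against 5.23%, and held 64.0% of the SPATA and TEX UMIs and 48.0% of all UMIs. The share of UMIs from SPATA and TEX genes was 0.215% in the poor clusters and 0.113% in the named somatic ones in caput, and 0.212% and 0.110% in corpus.

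Gene by gene, a 2-fold rule named few SPATA and TEX genes, with shares near or below those of all features, though their median ratios were higher. In the poor caput clusters 5 of 32 genes were higher than in the named somatic ones (15.6%, against 22.6% of 17811 features) and TEX261 was lower (3.13%, against 16.7%), with a median log2 ratio of 0.97 against 0.65. The 5 were TEX9 (124 against 45.9 CPM), TEX11 (119 against 44.7), SPATA5 (313 against 124), SPATA48 (50.3 against 20.2) and SPATA13 (263 against 108). In corpus the rule named SPATA18 alone of 22 genes, at 39.8 against 10.7 CPM (4.55%, against 5.19%), and 0 were lower (18.2% of features), with a median log2 ratio of 0.96 against 0.58.

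Within the named somatic classes of the ducts, SPATA5 lay between 86.5 CPM in clear or narrow cell-like and 139 CPM in macrophage-like cells of caput. In corpus it lay between 77.5 CPM in luminal epithelial-like and 291 CPM in endothelial-like cells, where 1 UMI was worth 15.3 CPM. SPATA6, at 604 CPM in the germ-like caput cells, lay between 31.4 and 74.5 CPM in the named somatic classes of caput. Free RNA can put germ cell UMIs in other cells: the 13 measured elongating spermatid markers summed to 10192 CPM in germ-like and 225 CPM in named somatic caput cells, and the 14 late spermatocyte markers to 5760 and 309 CPM. Its part in the somatic levels of SPATA and TEX genes was not tested. SPATA13, at 46.5 CPM in germ-like cells, had 108 CPM in the named somatic cells of caput, and TEX11, at 23.3 CPM, had 44.7 CPM there. The 60 genes as a whole held between 0.0904% of UMIs in clear or narrow cell-like and 0.121% in fibroblast-like cells of caput, and between 0.0806% in luminal epithelial-like and 0.184% in endothelial-like cells of corpus.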

How the data were processed

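Single-cell RNA libraries of testis, epididymis caput and epididymis corpus (DNBelab C4 droplets) were analysed, 1 per tissue. The authors deposited raw UMI counts per gene and cell, made with PISA 0.12, per the file headers. Cell Ranger 2.1.1 is named by the submitters' processing notes without a role. The sources used here name no aligner and no genome build. Barcode names are serial numbers, so barcodes shared between libraries could not be counted.

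Cells with at least 200 genes were kept (8528 of 8610, 9478 of 9478 and 9609 of 9611). Scrublet scores, with 2 simulated doublets per cell, marked 82 doublets in testis (0.952%) and 0 in caput and corpus, where calling did not work. Each library was clustered without the 60 genes (scanpy 1.11.5, leidenalg 0.10.2; 2000 variable genes, 30 components, 15 neighbours, resolution 1), into 15, 12 and 7 clusters. Clusters were named from marker lists, with thresholds set after the clusters were seen: at least 3 markers, 20% of those measured, at a mean log2 of 0.6. Germ-like duct clusters needed at least 5 markers of 1 germ stage at a mean log2 of 0.9. Caput clusters 0 and 2, poor in ribosomal protein transcripts, passed the naming rule for Sertoli and endothelial markers but were left unnamed. Cluster 0 also passed it for early spermatocyte markers (3 of 14, mean log2 0.673) and was counted as not germ-like. Calls were run on simulated Poisson counts, the model the intervals assume, so that run does not bear on variation between cells or libraries.

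Counts were summed and scaled to CPM, with exact Poisson intervals; ratios have exact conditional binomial and shares Clopper-Pearson intervals, at 95%. A call needed 50 UMIs on the higher side and the whole interval beyond 4-fold. Genes named are all those with at least 50 UMIs in testis, with levels at every step for the 5 with the most UMIs per peak step, the 12 highest in each duct library, and the calls, or the 12 with intervals farthest from 1. The genes and lists were chosen with earlier results of these data known. Levels of further genes were added after their values were seen. Of the 60 symbols, 47 were in a table of RefSeq genes that served for names.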

Additional observations from a re-analysis of the deposited data

How the results depend on the processing

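No paired analysis was possible because each tissue has 1 library. The numbers of genes with a peak step, in step order, were 1, 0, 0, 0 and 10 when the interval had to lie above 2-fold. With 4000 variable genes the round spermatid-like number was 9 and the elongating number 30, and the unnamed late number could not be had since that step had no cells. The unnamed late number was 12 with the 60 genes kept in the clustering and 14 with the 75-cell cluster added to the elongating cells, an alternative chosen after seeing the data. There the log2 ratio of the elongating to the highest other step was -0.23 for SPATA19 and -0.062 for TEX33. A 10-fold rule gave 11 genes higher in testis than caput and 16 higher than corpus. Caput was higher than corpus for 12 genes by a 2-fold rule, 0 by a 10-fold rule, 0 in cells with at least 500 genes, 2 after thinning and 0 without the germ-like caput clusters. For the counts between libraries in this section, shares over all features are not given. The germ-like share of SPATA and TEX UMIs in caput was 31.9% without the 12 genes highest there, also chosen after seeing the data. In corpus cells with at least 500 genes, 1007 cells, the genes held 0.131% of UMIs; the genes called higher in testis than corpus were then 24, against 30 in all cells, and 96.0% of calls. For single genes over all settings, the peak step was counted as kept in 295 cases, lost the call in 38 and reversed in the 2 above. Of the 295, 38 came from the mean over cells of each cell's share of UMIs, where direction alone was read. A further 38 came from a minimum of 10 UMIs, which could not lose a call. Leaving out the 50 features with the most UMIs shifted the median of all features by at most 0.04 (log2). No share was computed for germ-like cells of corpus because no cluster met the rule. The cause of these changes was not tested. Depth limits the corpus most, where 25 genes reached 50 UMIs.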

Other observations

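Testis cells outside the 5 steps also held SPATA and TEX UMIs. An unnamed cluster of 652 cells led by PTPRD and GALNTL6 gave these genes 0.627% of its UMIs. An unnamed cluster of 283 cells with 7 of 10 T or NK markers gave them 0.740%. This 283-cell cluster met the naming rule for T or NK cells (mean log2 1.67) but was left unnamed. The 172 fibroblast-like testis cells gave them 0.559% (0.541 to 0.577%), with SPATA17 at 448 CPM, SPATA6 at 398 CPM and TEX49 at 527 CPM. The late spermatocyte markers summed to 6131 CPM in these fibroblast-like cells, 7511 CPM in the 283-cell cluster and 9917 CPM in late spermatocyte-like cells, and the part of free RNA or doublets in these values was not tested. The 22 macrophage-like cells gave 0.515% and the 30 T or NK-like cells 0.161% (0.133 to 0.193%). The interval of the fibroblast-like testis cells held the 0.543% of late spermatocyte-like cells and lay above the 0.121% of fibroblast-like cells in caput.

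The 75-cell testis cluster that met the elongating spermatid rule but was kept out of the steps gave SPATA and TEX genes 0.922% of its UMIs. It held SPATA18 at 209 CPM, SPATA3 at 398 CPM and TEX35 at 225 CPM, together with SPATA16 at 257 CPM and TEX14 at 185 CPM.

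One feature listed by a locus identifier, LOC106826822, is TEX54 in the RefSeq table and so was not taken by name. It had 6.38, 30.1, 129, 278 and 362 CPM along the 5 steps, with a last step 1.30-fold (1.13 to 1.496) above the unnamed late step. It had 3138 UMIs in testis, 35 in caput and 2 in corpus.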
